A study of Mus musculus with 8 samples.

Results

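Layer 5 extratelencephalic (L5 ET) neurons of the mouse cortex were taken from single-nucleus RNA sequencing of cortex at postnatal day 25. Members were chosen by unique molecular identifier (UMI) counts of marker genes in each nucleus, so the values of those genes describe the choice and test nothing. Nuclei with fewer than 500 detected genes, or with more than 2% of their UMIs from mitochondrial genes, were left out. A kept nucleus was a member with at least 1 UMI of Slc17a7, at most 1 of Gad1 and Gad2 together, at least 1 of Bcl11b, at least 3 of Erg, Chst8, Slco2a1 and Vat1l together, at most 3 of Foxp2, and at most 2 of the glial and vascular genes Slc1a3, Mog, Inpp5d and Flt1 together. The rule found 1562 nuclei among 77185 kept nuclei, of which 42073 met the criteria for excitatory neurons.

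The study compared mice heterozygous for Chd8, a chromatin remodeller gene linked to autism, labelled Chd8het, with wild-type (WT) littermates on the C57BL/6J background. Each of the 8 libraries came from 1 mouse, with 2 males and 2 females per genotype, matched by litter and sex. The sources used here do not describe the Chd8 allele. The medial cortex had been removed from every sample before freezing. The first library of each sex and genotype was single-indexed and the second dual-indexed, so replicate number and index type are the same split. A pair below is the WT and the Chd8het library of the same sex and replicate number. The labels do not state that pairing, so its mice need not share a litter.

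L5 ET neurons, also called pyramidal tract neurons, are the thick-tufted pyramidal cells that send the output of the cortex to the brainstem, the spinal cord and higher-order thalamus. Their fate depends on the transcription factors Fezf2 and Bcl11b (Ctip2), which direct axons below the cortex. In rodents they are known for low-threshold calcium electrogenesis in the apical dendrite and for large neurofilament-rich axons. Their neighbours in the deep layers are the layer 6 corticothalamic (L6 CT) neurons, which project to the thalamus, and the layer 5/6 near-projecting (L5/6 NP) neurons, which stay within the cortex.

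The members were spread unevenly over the libraries. WT male 1 held 137 members, WT male 2 held 178, WT female 1 held 86 and WT female 2 held 234. Chd8het male 1 held 216, Chd8het male 2 held 376, Chd8het female 1 held 151 and Chd8het female 2 held 184. No member barcode was shared between libraries. Summed over members, a library held between 1413144 and 5825834 UMIs. The median member held between 13850 and 17450 UMIs per library, against 7396 to 10810 in the other excitatory nuclei. The median nucleus held 8290 to 10380 UMIs in an L6 CT class and 6694 to 9608 UMIs in an L5/6 NP class. Those classes were gated on UMIs of their own markers, with at most 1 UMI of Erg, Chst8, Slco2a1 and Vat1l together. A rule that asks for UMIs of several genes favours deep nuclei, and a ceiling on UMIs favours shallow ones. These differences in depth are therefore not independent of the choice. A doublet caller marked 62 members, or 3.97%, and at most 6.18% of the members of any library.

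Markers of other classes were compared with the label. Several of the lists hold genes of the rule, so their sums are set in part by the choice. All L5 ET markers but Parm1 count towards membership. The rule caps Foxp2 among the L6 CT markers, and Gad1 and Gad2 among the interneuron markers. It also caps Slc1a3, Mog and Inpp5d among the glial markers. The 6 L5 ET markers summed to between 860 and 923 CPM (counts per 1000000 UMIs) in WT and between 826 and 998 CPM in Chd8het members. L6 CT markers, including Foxp2, Hs3st4 and Syt6, summed to 195 to 310 CPM in WT and 188 to 431 CPM in Chd8het members, with a median of 204 CPM against 997 CPM in the other excitatory nuclei. L5/6 NP markers, including Tshz2 and Vwc2l, ranged more widely, from 297 to 761 CPM in WT and from 192 to 692 CPM in Chd8het members. Their median, 445 CPM, was above the 264 CPM of the other excitatory nuclei, and they differed several-fold between libraries of the same genotype. The 2 detected markers of layer 5 intratelencephalic (L5 IT) neurons, Il1rapl2 and Deptor, also ranged widely, from 87.5 to 509 CPM in WT and from 118 to 547 CPM in Chd8het members. Their median over libraries was 191 CPM in the members, against 610.1 CPM in the other excitatory nuclei. Interneuron markers summed to 160 to 321 CPM in WT and 157 to 307 CPM in Chd8het members, and oligodendrocyte markers to 146 to 263 and 123 to 302 CPM. Astrocyte markers summed to 209 to 287 CPM in WT and 200 to 288 CPM in Chd8het members, and microglial markers to 59.4 to 81.1 and 72.9 to 79.1 CPM. Their part in the results below was not tested.

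The genes of the gate were not equally frequent among the members. Erg, an ETS transcription factor, was detected in 15.4% to 53.3% of the members of a library. In inhibitory nuclei, with median depths of 6970.5 to 9607 UMIs, Erg was detected in 1.33% to 3.75%. Chst8, a carbohydrate sulfotransferase, was detected in 65.1% to 94.4% of members and in 1.34% to 5.35% of inhibitory nuclei. Vat1l was detected in 64.4% to 83.7% of members and in 11.2% to 28.6% of inhibitory nuclei, a higher share there than for Erg, Chst8 or Slco2a1. Slco2a1, a prostaglandin transporter, was detected in 16.8% to 40.7% of members and in 3.69% to 6.17% of inhibitory nuclei. All 4 genes were found together in 52 members, and 252 members carried UMIs of only 1 of the 4. Bcl11b, required in every member, was detected in 48.0% to 58.7% of inhibitory nuclei. Parm1, a marker of the label outside the rule, was detected in 46.3% to 87.2% of members and in 41.4% to 51.2% of inhibitory nuclei. Whether UMIs in inhibitory nuclei reflect expression there was not tested. At the edge of the rule, 363 members had a marker sum of exactly 3, and a further 647 nuclei that met every other criterion had a sum of 2.

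An identity score was computed from genes that the rule did not use. It is the number of UMIs of 19 genes known from L5 ET neurons, among them Fezf2, Parm1, Npr3, Ldb2, Sox5 and Crym, per 10000 UMIs of the nucleus. Values of single libraries are given throughout in the order male 1, male 2, female 1, female 2. The median score was 35.0, 35.9, 36.8 and 36.2 among WT and 32.6, 24.0, 31.9 and 36.0 among Chd8het libraries. Chd8het male 2 lay apart from the others. The mean of the library medians was 36.0 ± 0.765 (SD, n = 4) in WT and 31.1 ± 5.06 (SD, n = 4) in Chd8het, and was lower in Chd8het in 4 of 4 pairs (exact permutation test, two-sided, p = 0.0857). The difference, -4.85, was -2.48 without Chd8het male 2 (exact p = 0.0857), and -6.47 without Chd8het female 2 (exact p = 0.0286). In the L5/6 NP class the median score was also lower in the Chd8het library of each pair. It was 21.8, 23.1, 23.8 and 24.0 in WT and 21.2, 17.1, 22.3 and 19.5 in Chd8het. In the L6 CT class and in the other excitatory nuclei it was higher in Chd8het male 1 and Chd8het female 2 than in their WT partners. At the edge of the rule, members with a marker sum of 3 had a median score of 24.5, and nuclei with a sum of 2 had 18.3. The 299 members with exactly 1 Bcl11b UMI had a median of 19.0, and nuclei that missed only Bcl11b had 11.3. Members with 3 Foxp2 UMIs had a median of 32.4, and nuclei left out for having 4 had 36.3.

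**Figure D1:**
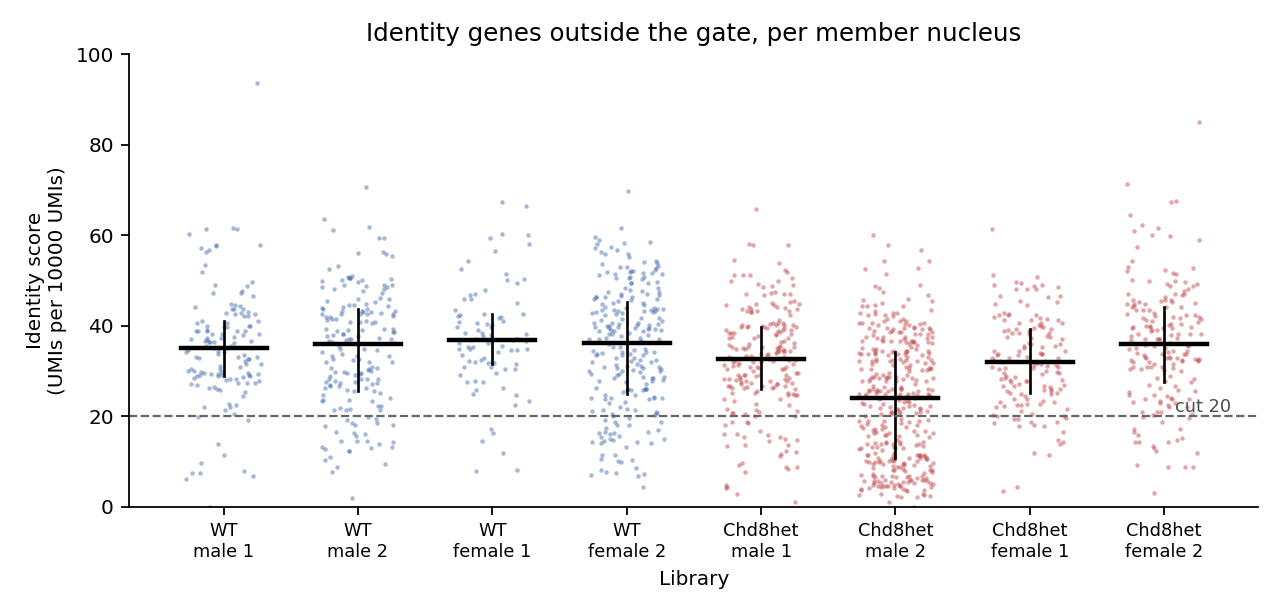
Identity score of each of the 1562 members by library, in UMIs of 19 identity genes per 10000 UMIs. Each point is a nucleus, thick bars are medians, thin bars span the quartiles, and the dashed line is the cut of 20. In Chd8het male 2 many members lie under the cut, and 57.7% are at or over it.

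A cut of 20, chosen after the scores were seen, left 1248 of the 1562 members (79.9%) at or over it and 314 under it. In Chd8het male 2, 159 members were under the cut, and 57.7% were at or over it. In the other libraries 83.3% to 93.0% of members were at or over the cut. Over all 8 libraries 237 members lay within 5 of it, 74 of them in Chd8het male 2. The cut is not particular to L5 ET nuclei: 39.3% to 67.9% of the nuclei of the L5/6 NP class, 30.0% to 50% of the L6 CT class and 11.5% to 21.04% of the other excitatory nuclei of a library were also at or over it. The members under the cut in Chd8het male 2 differed from those over it in the same library in genes that neither the rule nor the score used. Inpp4b, a phosphoinositide phosphatase, stood at 504 CPM in the former and 66.6 CPM in the latter, the netrin receptor gene Unc5d at 1370 and 188 CPM, and the kinase gene Prkg1 at 1390 and 167 CPM. Kcnn2, a potassium channel gene that belongs to the score, was at 148 CPM in the former and 647 CPM in the latter. These 4 genes were picked from the largest differences within this library. In the other 7 libraries pooled, members under the cut had them at 90.0, 861, 714 and 245 CPM, in the same order. Over the cut, those libraries ranged from 26.6 to 61.4, 97.0 to 145, 36.2 to 111 and 640 to 831 CPM. The Inpp4b contrast was thus smaller there. Over all libraries, members under the cut had a median of 789 CPM of L5 IT markers against 467 CPM of L5 ET markers. The L5 IT sums ranged from 67.1 to 1733 CPM in WT and from 215 to 1137 CPM in Chd8het libraries, and the L5 ET sums from 354 to 428 and from 505 to 624 CPM. WT female 1 held only 6 such nuclei. At or over the cut the medians were 120 and 970 CPM. The L5 IT median in the other excitatory nuclei was 610 CPM. Markers of L2/3 IT, L4/5 IT and L6 CT neurons were higher under the cut too. Their medians were 253, 303 and 352 CPM, against 49.7, 60.9 and 206 CPM at or over it. L5/6 NP markers were lower, at 345 against 493 CPM. The L5 IT and L5 ET lists hold 2 and 6 detected genes. All L5 ET markers belong to the gate or the score, so their levels are set in part by the selection. The members under the cut were given no other name. Because they weigh on 1 library, the shares and the genotype calls that follow are given for all members and for those at or over the cut, and class differences at the cut are given for some of the named genes. Members at or over the cut were selected for high levels of the score's genes, so the levels of those genes there are set in part by the selection.

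The share of L5 ET nuclei among excitatory nuclei was higher in the Chd8het than in the WT mouse of each of the 4 pairs, but the genotype groups overlapped. It was 2.67% in WT male 1 (Wilson 95% interval 2.26 to 3.15%), 4.14% in WT male 2 (3.58 to 4.78%), 1.58% in WT female 1 (1.28 to 1.95%) and 4.12% in WT female 2 (3.63 to 4.67%). It was 3.57% in Chd8het male 1 (3.13 to 4.07%), 7.08% in Chd8het male 2 (6.42 to 7.80%), 2.57% in Chd8het female 1 (2.20 to 3.01%) and 4.30% in Chd8het female 2 (3.73 to 4.95%). Chd8het male 2 was the highest library and WT female 1 the lowest. The intervals cover counting error only.

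The mean share was 3.13% ± 1.24 (SD, n = 4) in WT and 4.38% ± 1.93 (SD, n = 4) in Chd8het. The difference was 1.25 percentage points (exact permutation test of the genotype labels, two-sided, p = 0.343). That test took no account of index type or of the pairs. A sign-flip test over the 4 pairs gave an exact p of 0.125, the smallest that 4 pairs allow. The difference was 0.944 points within the single-indexed libraries and 1.56 points within the dual-indexed ones. Between index types the shares did not overlap, with a mean of 4.91% where libraries were dual-indexed and 2.60% where they were single-indexed (exact permutation test, two-sided, p = 0.0286, the smallest that 4 against 4 allows). With nuclei thinned to equal depth, only 1 to 22 members per library remained. The index groups then overlapped, with means of 0.507% dual-indexed and 0.222% single-indexed (exact permutation test, two-sided, p = 0.0571). Without Chd8het male 2 the difference was 0.352 points. The Chd8het mouse was the higher one in only 3 of 4 pairs with all kept nuclei as the denominator, without Erg in the rule, with at least 5 marker UMIs, or with nuclei thinned to equal depth.

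Among members at or over the cut, the share was 2.46%, 3.47%, 1.47% and 3.43% among WT and 3.04%, 4.08%, 2.28% and 3.81% among Chd8het libraries. The means were 2.71% ± 0.948 and 3.30% ± 0.812 (SD, n = 4 each), a difference of 0.598 points (exact permutation test, two-sided, p = 0.371). The Chd8het mouse was again the higher one in 4 of 4 pairs. Without WT female 1 this difference was 0.186 points.

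**Figure D2:**
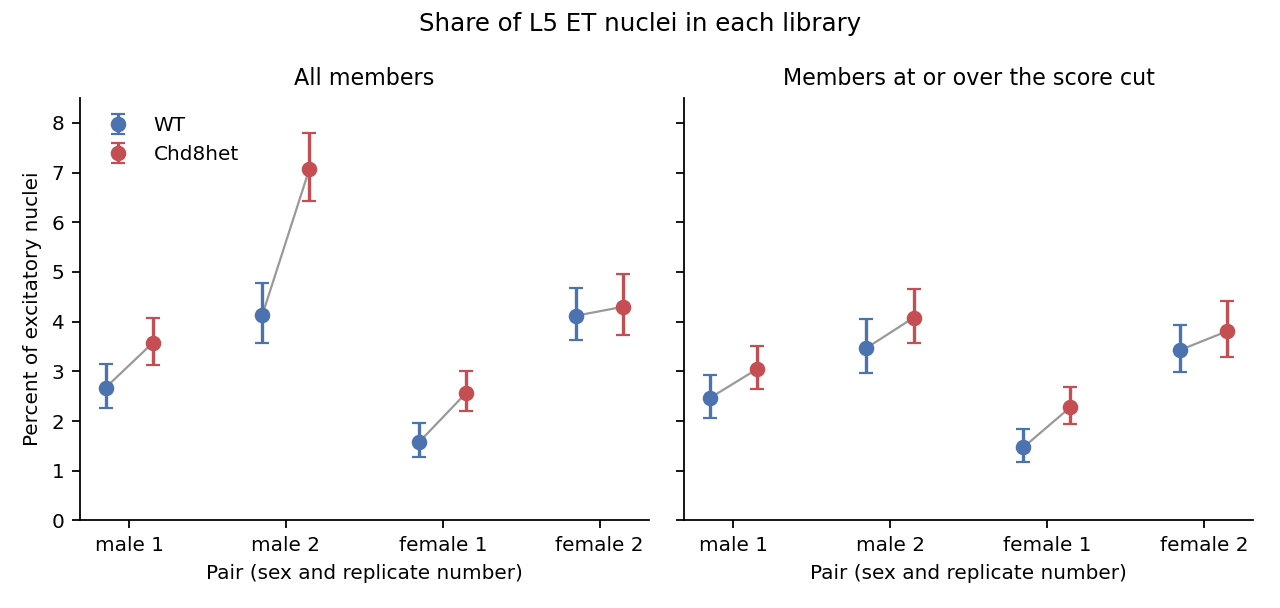
Share of L5 ET nuclei among excitatory nuclei in percent, by pair of the same sex and replicate number, for all members and for members at or over the score cut. Points are libraries, bars are Wilson 95% intervals, and grey lines join the pair. The Chd8het library is the higher one in all 4 pairs, and Chd8het male 2 falls from 7.08% to 4.08% with the cut.

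The depth of the members overlapped between the genotypes. The median was 15480 UMIs ± 897 (SD, n = 4) in WT and 14780 UMIs ± 1780 (SD, n = 4) in Chd8het (exact permutation test, two-sided, p = 0.514), and was lower in Chd8het in 3 of 4 pairs. Chd8het female 2, at 17450 UMIs, was the deepest of all libraries, and the other Chd8het libraries lay between 13850 and 13930 UMIs. The difference, -705 UMIs, ranged from -397 without Chd8het male 1 to -1590 without Chd8het female 2 (exact permutation test, two-sided, p = 0.0571 for the latter).

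Members at or over the cut were divided by whether an Erg UMI was detected, as a description with no test, since Erg belongs to the rule. An Erg UMI was present in 450 nuclei and absent in 798. The share with Erg was 54.0%, 32.9%, 38.8% and 33.3% in the WT libraries and 41.3%, 19.8%, 52.2% and 29.4% in the Chd8het libraries. The groups overlapped, and all 4 single-indexed libraries were above all 4 dual-indexed ones. Of 3138 genes at 50 CPM or more in either set, 192 were higher in the nuclei with Erg in 8 of 8 libraries and 220 were lower in 8 of 8.

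Nuclei with Erg carried more of Vwc2l, a secreted bone morphogenetic protein modulator, at 247 ± 111 CPM against 35.9 ± 14.7 CPM (SD, n = 8 libraries). Tenm3, a teneurin that guides synaptic partner choice, was at 1337 ± 180 CPM in them against 436 ± 79.4 CPM. Rora, a nuclear receptor, was at 2039 ± 388 CPM against 760 ± 111 CPM. The adenylyl cyclase gene Adcy8 was at 411 ± 51.4 CPM against 187 ± 22.4 CPM. Nuclei without Erg carried more of the cadherin gene Cdh13, at 693 ± 236 CPM against 238 ± 85.6 CPM. They also carried more Cntnap5c, a contactin-associated protein gene, at 245 ± 71.3 CPM against 58.9 ± 14.9 CPM. Nuclei with no detected Erg can still express it at this depth. The division is therefore by detection, and whether it marks types was not tested. The median depth per library was 12596.5 to 16295 UMIs with Erg and 13005 to 18241 UMIs without. Only in Chd8het male 2 were the nuclei with Erg the deeper ones (14764 against 13005 UMIs).

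The members were next set beside the 40511 other excitatory nuclei, in sums of UMIs per library with the library as a block. These differences describe how the classes differ and lend no support to the label, because both were gated on the same nuclei. With edgeR's quasi-likelihood test, an adjusted p under 0.05 and at least a 2-fold difference were reached by 1500 of 17836 genes (8.41%), 592 of them higher (3.32%) and 908 lower (5.09%) in L5 ET nuclei. With the members at or over the cut there were 1915, 717 higher and 1198 lower. Among the 12 largest decreases, the cut moved 3 genes the most. They were Cux2, an upper-layer transcription factor (-2.25 for all members and -3.63 at or over the cut), the collagen gene Col19a1 (-2.12 and -3.38) and Prkg1 (-2.13 and -3.25). Of the 18 identity genes tested, 15 were higher and 1 was lower, with a median log2 difference of 1.59 against -0.034 over all genes. CPM values are scaled within each comparison, so a gene's level can differ slightly between comparisons.

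Transcription factors of the subcerebral program were among them. Fezf2, which specifies subcerebral projection, was at 13.7, 21.9 and 28.2 CPM in L5 ET nuclei (lowest, median and highest of 8 libraries) against 4.41, 5.76 and 7.17 CPM in other excitatory nuclei, a log2 difference of 1.93 ± 0.09 (SE). Bcl6 was at 32.4, 37.0 and 54.3 CPM against 4.60, 5.88 and 9.14 CPM (2.63 ± 0.11). Sox5, which controls the timing of corticofugal neuron production, was at 692, 1011 and 1202 CPM against 363, 388 and 439 CPM (1.34 ± 0.06). In each of the 3 genes every L5 ET value lay above every value of the other nuclei. How common such separation of the classes was over all genes is not given, here or for the genes below. Differences were common in this comparison, with an unadjusted p under 0.05 in edgeR for 46.46% of the 17836 genes. Pou3f1 (1.84 ± 0.14) and the cofactor gene Ldb2 (1.31 ± 0.09) were higher in 8 of 8 libraries as well.

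Surface and signalling genes of the identity list were also higher. Npr3, the natriuretic peptide clearance receptor, was at 57.0, 86.1 and 98.3 CPM against 10.9, 16.5 and 19.9 CPM (log2 difference 2.44 ± 0.09). Stac, an adaptor of voltage-gated calcium channels, was at 34.1, 42.4 and 58.7 CPM against 1.87, 2.92 and 6.97 CPM (3.71 ± 0.18). Parm1, a marker of the label that the rule did not use, was at 91.1, 194 and 333 CPM against 19.4, 23.2 and 40.7 CPM (2.86 ± 0.10). The levels of Stac, Npr3 and Parm1 did not overlap between the classes. Bmp3 was the 1 identity gene that was lower, at 1.28, 2.83 and 6.68 CPM against 5.96, 7.47 and 9.55 CPM (-1.0 ± 0.18), with a log2 difference of -1.59 at or over the cut.

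Channels of dendrite and axon went both ways. Of 39 excitability genes tested, 6 were higher and 5 lower, with a median log2 difference of 0.042. Pex5l (TRIP8b), an auxiliary subunit that sets the trafficking of dendritic channels, was at 1995, 3085 and 3366 CPM against 763, 954 and 1214 CPM (1.60 ± 0.07). Cacna1h, a low-threshold calcium channel, was at 41.2, 66.2 and 74.7 CPM against 6.38, 9.53 and 17.9 CPM (2.62 ± 0.10). Both were higher in 8 of 8 libraries with no overlap. Kcnn2, a calcium-activated potassium channel, was also higher (1.72 ± 0.08). The fast delayed-rectifier gene Kcnc2 was lower, at 45.5, 82.4 and 177 CPM against 238, 313 and 370.2 CPM (-1.67 ± 0.17), as were Kcnh5 (-1.77 ± 0.08) and Kcnip2 (-1.48 ± 0.18). In members at or over the cut the log2 difference was -2.51 for Kcnc2 and -2.24 for Kcnip2.

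Axon guidance genes also divided. Of 40 tested, 7 were higher and 7 lower, with a median log2 difference of 0.48. Robo1, a receptor for Slit repellents, was at 1820, 2052 and 2633 CPM against 506, 567 and 848 CPM (1.82 ± 0.07). Ntng1, which encodes netrin-G1, was at 407, 527 and 664 CPM against 120.2, 159 and 183 CPM (1.76 ± 0.05), and the semaphorin receptor gene Nrp1 at 181, 262 and 280.2 CPM against 61.1, 86.2 and 135 CPM (1.40 ± 0.11). The netrin receptor genes differed in direction: Unc5c was higher (1.17 ± 0.07), and Unc5d (-2.10 ± 0.19) and Dcc (-1.25 ± 0.11) were lower. Unc5d was at 152, 214 and 723 CPM in L5 ET nuclei against 809, 1013 and 1469 CPM, and its log2 difference was -3.04 in members at or over the cut, where that of Dcc was -1.76. The semaphorin genes Sema5a (-2.10 ± 0.14) and Sema3a (-1.56 ± 0.12) were lower.

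In the list of axonal cytoskeleton genes, Nefh (1.82 ± 0.17), the heavy neurofilament subunit, and Gap43 (1.06 ± 0.07), a growth cone protein, were higher and Alcam (-1.31 ± 0.10) was lower among 17 tested. Nefh counts were low, at 5.05, 6.36 and 10.9 CPM against 1.60, 1.80 and 2.65 CPM. Among 24 glutamate receptor genes, Grik2, a kainate receptor subunit, was higher, at 1526, 1787 and 1991 CPM against 639, 699 and 791 CPM (1.34 ± 0.05). The AMPA receptor gene Gria4 (-1.19 ± 0.08), Grm3 (-1.20 ± 0.08) and Grik1 (-1.02 ± 0.23) were lower, and at or over the cut Grik1 was at -1.71 and Alcam at -1.84 on the same scale. Of 30 neuromodulator receptor genes, 4 were higher and 7 lower. The serotonin receptor gene Htr4 was at 42.6, 62.9 and 89.4 CPM against 9.06, 14.0 and 26.6 CPM (2.09 ± 0.10), and the adrenergic receptor gene Adra1a (1.52 ± 0.07) and Htr1f (1.17 ± 0.06) were higher. The muscarinic receptor gene Chrm2 was lower (-1.65 ± 0.11). None of the 9 CHD remodeller genes tested reached a 2-fold difference.

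**Figure D3:**
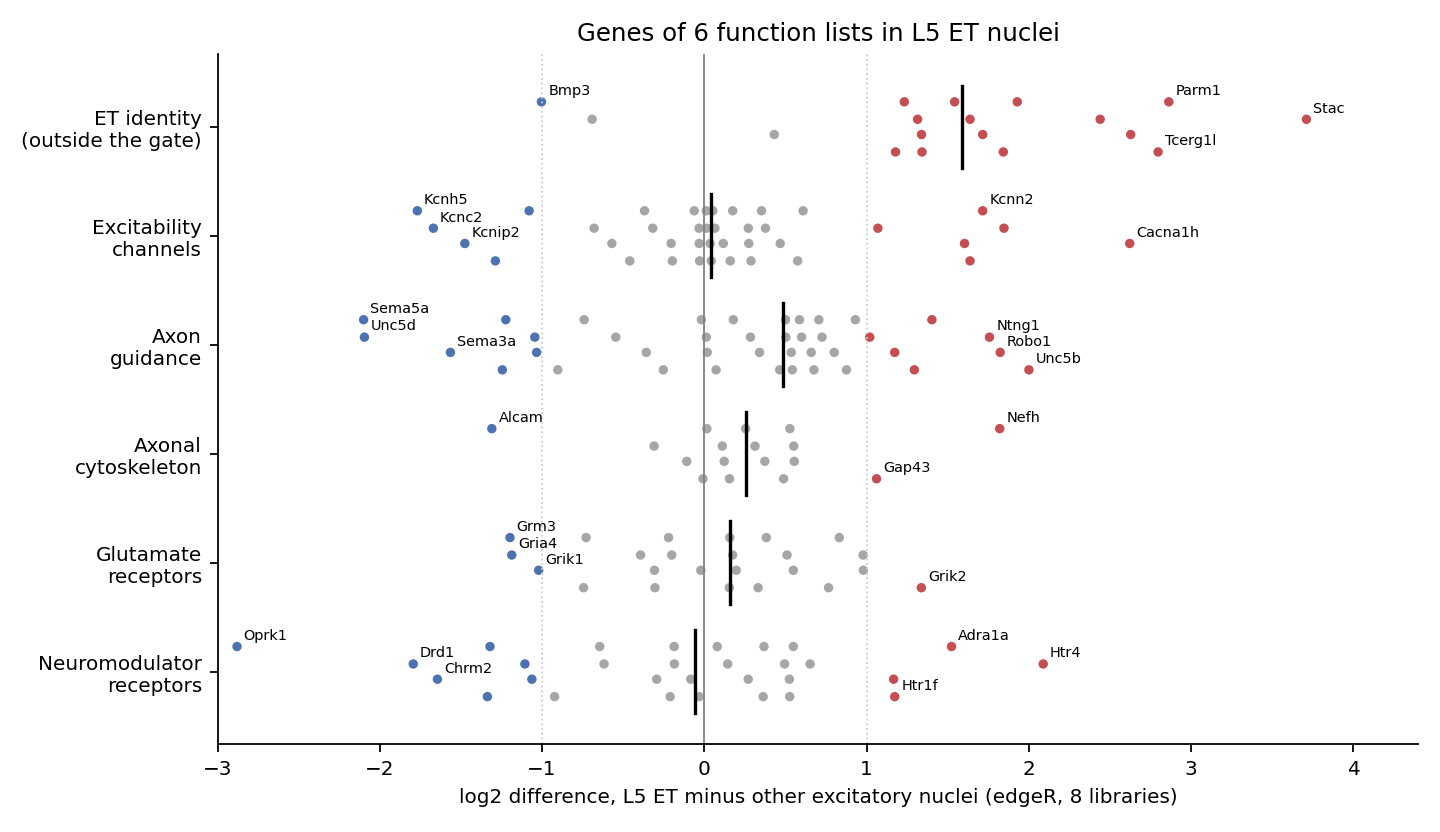
Log2 difference between L5 ET and other excitatory nuclei for the tested genes of 6 function lists, from edgeR on sums of UMIs in 8 libraries. Each point is a gene, red and blue points reached an adjusted p under 0.05 and at least a 2-fold difference, and black bars are list medians. Identity genes have a median of 1.59, and the excitability channels a median of 0.042 with genes on both sides.

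Against the L6 CT class, 1188 of 12824 genes (9.26%) reached both thresholds, 758 higher (5.91%) and 430 lower (3.35%) in L5 ET nuclei. Of 17 identity genes, 9 were higher and 1 lower, with a median of 1.07. Tafa1, a secreted chemokine-like protein, was at 3982, 5330 and 6435 CPM against 150.0, 188 and 266 CPM (log2 difference 4.76 ± 0.11). Ntng1 was at 403, 524 and 678 CPM against 17.3, 25.7 and 35.7 CPM (4.33 ± 0.08), and Unc5c at 657, 979 and 1759 CPM against 91.0, 115 and 156 CPM (3.09 ± 0.08). Lower in L5 ET nuclei were Syt6, a corticothalamic marker, at 0.737, 2.95 and 5.61 CPM against 68.2, 103 and 258 CPM (-5.41 ± 0.13), and the corepressor gene Tle4 (-3.62 ± 0.11). The opioid receptor gene Oprm1 was also lower, at 68.1, 97.9 and 138 CPM against 314, 450 and 611 CPM (-2.14 ± 0.07). Fezf2 was higher in 8 of 8 libraries (0.78 ± 0.12) without reaching a 2-fold difference, and Crym was lower in 8 of 8 (-0.59 ± 0.09).

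Against the L5/6 NP class, 750 of 10659 genes (7.04%) reached both thresholds, 407 higher (3.82%) and 343 lower (3.22%). Of 16 identity genes, 7 were higher and none was lower, with a median of 0.82. Npr3 was at 58.7, 88.0 and 102 CPM against 2.46, 5.23 and 8.16 CPM (3.95 ± 0.14), and Cacna1h at 43.6, 67.7 and 76.4 CPM against 3.50, 6.74 and 13.7 CPM (3.07 ± 0.14). Fezf2 did not separate these classes, at 14.5, 22.4 and 28.9 CPM against 16.7, 31.3 and 42.8 CPM (-0.34 ± 0.15, higher in 2 of 8 libraries). The presynaptic gene Nxph1 was lower in L5 ET nuclei, at 11.2, 40.7 and 64.9 CPM against 482, 1263 and 1689 CPM (-4.77 ± 0.29). Dcc was at 263, 328 and 744 CPM against 1802, 2821 and 3284 CPM (-2.84 ± 0.19), and Htr2c (-2.69 ± 0.18) and Chrm2 (-3.63 ± 0.17) were lower too.

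Genotype was then compared within the members, on UMIs summed per library, with sex and index type as covariates. Chd8 was at 85.5, 87.1, 89.6 and 94.4 CPM in WT and at 98.4, 105, 84.8 and 99.0 CPM in Chd8het libraries. The log2 change was 0.12 ± 0.09 (edgeR, adjusted p = 0.804), and the groups overlapped. With the allele not described, it cannot be told whether UMIs of the altered transcript are counted, so this level does not check the labels, and groups are named as labelled.

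Over all members, 0 of 12197 genes (0.0%) passed an adjusted p under 0.05 in edgeR, and 904 (7.41%) had an unadjusted p under 0.05. DESeq2 on the same sums called 11 genes, 2 higher and 9 lower in Chd8het. In the members at or over the cut, an alternative chosen after the data were seen, edgeR called 5 of 11733 genes (0.0426%), all lower in Chd8het, and 943 (8.04%) had an unadjusted p under 0.05. Gm14330, 4930415C11Rik, Pde10a and 5330434G04Rik were among the 5 called. With each pair as a block, 7 genes (0.0597%) were called, the same 5 with Gm15336 and AC171003.1. Without WT male 1, WT male 2, WT female 1 or Chd8het male 2 no gene was called, and without Chd8het female 2 there were 52. The log2 changes moved less when 1 library was left out, from -1.09 to -0.90 for Gm14330, from -1.04 to -0.73 for 4930415C11Rik, from -0.42 to -0.36 for Pde10a and from -0.74 to -0.51 for 5330434G04Rik.

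Gm14330, an antisense transcript within the locus of the NMDA receptor gene Grin2b, fell in every Chd8het library below every WT library. Its level was 34.3, 46.3, 42.1 and 45.8 CPM in WT and 21.5, 19.7, 16.6 and 25.9 CPM in Chd8het members at or over the cut (log2 change -0.99 ± 0.14, edgeR adjusted p = 0.0172). Over all members it was -0.94 ± 0.13 (edgeR, adjusted p = 0.0856). Such complete separation, with every Chd8het library lower, was seen for 162 of 11733 genes (1.38%). Whether the counting used strand is not given in the sources used here, so reads of an antisense gene and of its partner may not be separable; Grin2b itself had a log2 change of -0.27 ± 0.06 (edgeR, adjusted p = 0.136).

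4930415C11Rik, an antisense transcript within the locus of the neurotrophin receptor gene Ntrk2, was at 113, 197, 122 and 151 CPM in WT and at 77.6, 73.1, 56.5 and 102 CPM in Chd8het (log2 change -0.90 ± 0.13, edgeR adjusted p = 0.0172). The groups did not overlap. Ntrk2 itself had a log2 change of -0.011 ± 0.09. 5330434G04Rik, annotated as a lincRNA gene of chromosome X (105348282 to 105391776), was at 258, 144, 180.2 and 165 CPM in WT and at 133, 114, 128 and 100.2 CPM in Chd8het (-0.64 ± 0.11, edgeR adjusted p = 0.0471), again without overlap. The change in other excitatory nuclei was -0.64 as well (edgeR, adjusted p = 0.0491).

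Pde10a, a cyclic nucleotide phosphodiesterase best known from striatal neurons, moved with index type as well as genotype. It was at 918, 1978, 921 and 1880 CPM in WT and at 724, 1592, 635 and 1419 CPM in Chd8het, so that every dual-indexed library was above every single-indexed one. The log2 change was -0.40 ± 0.07 (edgeR, adjusted p = 0.0471), with -0.44 between the single-indexed libraries and -0.36 between the dual-indexed ones. The 8 striatal markers, Pde10a included, summed to 886 to 1962 CPM in WT and 664 to 1659 CPM in Chd8het members at or over the cut. Of the other 7, Rgs9 was at 6.06 to 21.99 CPM per library, with 15.7 CPM over these members and 14.2 CPM over other excitatory nuclei. Drd1, Drd2, Penk, Ppp1r1b, Tac1 and Adora2a reached at most 1.17, 2.33, 3.14, 3.38, 3.03 and 0.483 CPM in any library. Shisa6, an AMPA receptor auxiliary subunit, did not pass: it was at 141, 124, 147 and 123 CPM in WT and at 86.9, 81.1, 106 and 96.8 CPM in Chd8het (-0.53 ± 0.09, edgeR adjusted p = 0.0614).

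**Figure D4:**
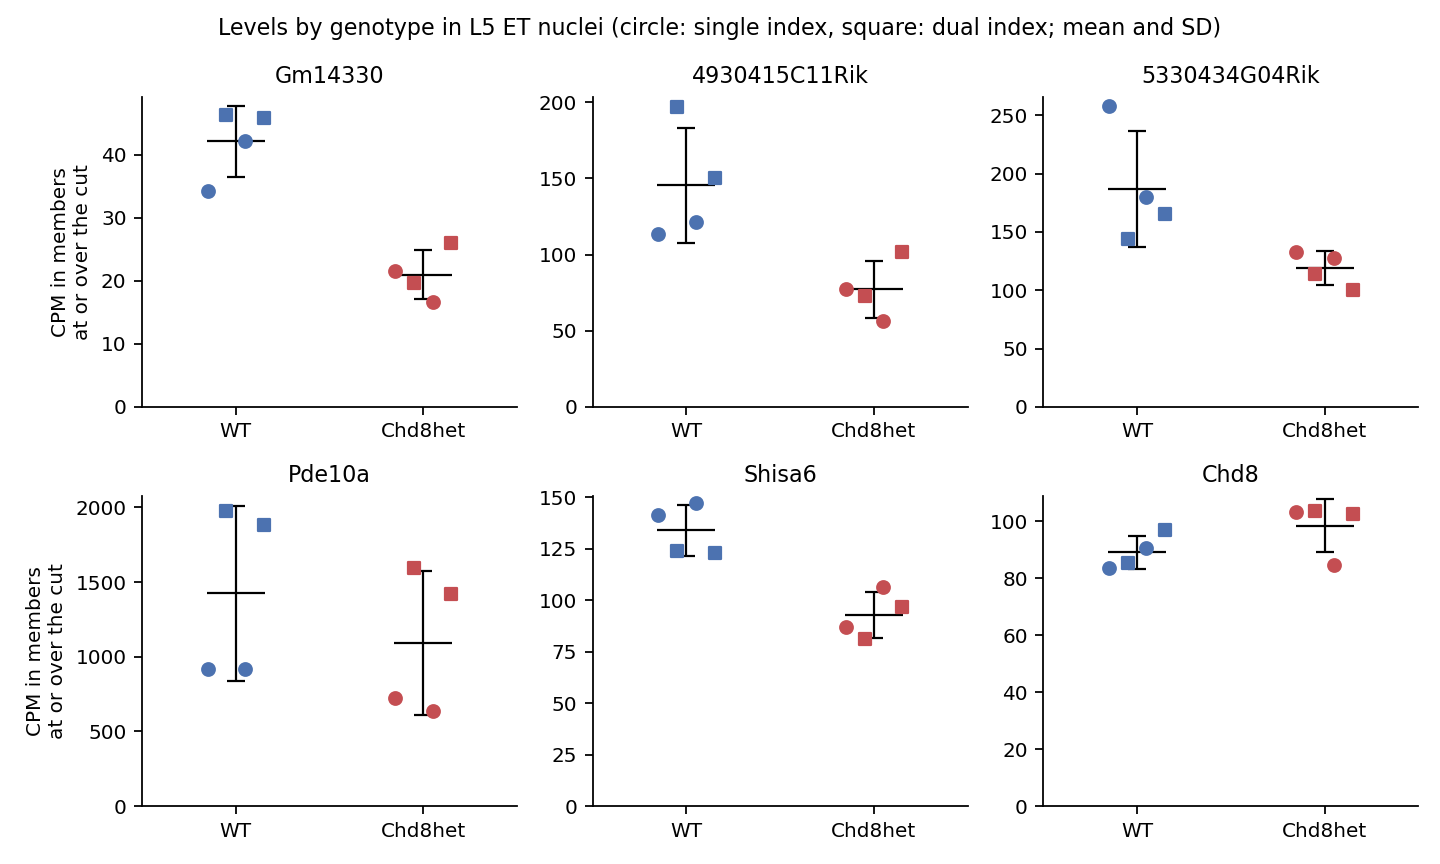
Levels in CPM of 4 genes called in members at or over the score cut, of Shisa6, which was not called, and of Chd8, by genotype. Each point is a library, circles are single-indexed and squares dual-indexed, and bars are mean and SD (n = 4). Gm14330, 4930415C11Rik, 5330434G04Rik and Shisa6 do not overlap between genotypes, and Chd8 does.

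Among all members, the gene with the smallest unadjusted p that was higher in Chd8het was Nek10, a kinase gene, at 8.70, 9.24, 5.10 and 7.32 CPM in WT and 13.4, 29.7, 12.4 and 18.2 CPM in Chd8het (log2 change 1.29 ± 0.20, edgeR adjusted p = 0.162). It did not pass the test. Separation of all 4 WT from all 4 Chd8het libraries, in either direction, was seen for 310 of 12197 genes (2.54%).

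No gene of the function lists was called by edgeR over all members, and DESeq2 called 1, Maml3. Identity genes had a median log2 change of -0.14 with 13 of 17 below 0, against 0.0035 over all genes. The cut selects on these same genes, so their change there is not read. Ldb2 (-0.36 ± 0.13) and Sox5 (-0.29 ± 0.09) were among them, with edgeR adjusted p of 0.567 and 0.481. For Ldb2 the change was -0.22 without Chd8het male 2 and -0.55 without Chd8het male 1. The ephrin gene Efna5 was at 587, 599, 592 and 619 CPM in WT and at 516, 485, 447 and 460 CPM in Chd8het, with no overlap (-0.33 ± 0.08, edgeR adjusted p = 0.354). At or over the cut Efna5 was at 635 CPM in Chd8het male 2, and the groups overlapped. Of 9 Notch pathway genes tested, 6 were above 0 with a median of 0.29 and none passed in edgeR, and at or over the cut the median was 0.11 with 7 above 0. Maml3, a Mastermind coactivator in that list, had a log2 change of -0.65 ± 0.15 (edgeR, adjusted p = 0.310 over the members), and DESeq2 called it (-0.64 ± 0.16, adjusted p = 0.0349).

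The difference of the genotype change between L5 ET and other excitatory nuclei was tested as an interaction. It passed for 5 of 18926 genes (0.0264%), Cnksr3, Prkg2, Stac, Gm34544 and Cdh18. At or over the cut it passed for 21 of 18724 genes (0.112%), of which 3 were among these 5, namely Stac, Gm34544 and Cdh18. Stac belongs to the score that makes the cut, so its call there is not read. Cdh18, a type II cadherin, was at 596, 432.1, 651 and 497 CPM in WT members and at 341, 430.2, 420.4 and 373 CPM in Chd8het members, with no overlap, though WT male 2 and Chd8het male 2 almost met. At or over the cut the groups overlapped and it was lower in 3 of 4 pairs, with WT male 2 at 345 CPM and Chd8het male 2 at 375 CPM. Its log2 change was -0.46 ± 0.12 in members and 0.08 in other excitatory nuclei, and the difference was -0.52 ± 0.10 (edgeR, adjusted p = 0.0224).

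Gm34544, a long intergenic noncoding RNA, had a log2 change of -0.43 ± 0.10 in members and 0.03 in other excitatory nuclei, a difference of -0.45 ± 0.08 (edgeR, adjusted p = 0.0224). For Stac the log2 change was -0.11 ± 0.11 in members and 0.79 in other excitatory nuclei, where Stac was low, and the difference was -0.91 ± 0.17 (edgeR, adjusted p = 0.0224). The calls for Cnksr3 and Prkg2 were lost at or over the cut (edgeR, adjusted p = 0.716 and 0.402). Without WT male 2 only Cdh18 of the 5 was called, with a difference of -0.61. Without WT male 1 or Chd8het male 1, Cdh18 (-0.46 and -0.39) and Gm34544 (-0.43 and -0.46) were not called, and Gm34544 (-0.40) was not called without Chd8het female 1. Without Chd8het male 2, Stac (-0.74), Prkg2 (0.67) and Cnksr3 (-1.02) were not.

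**Figure D5:**
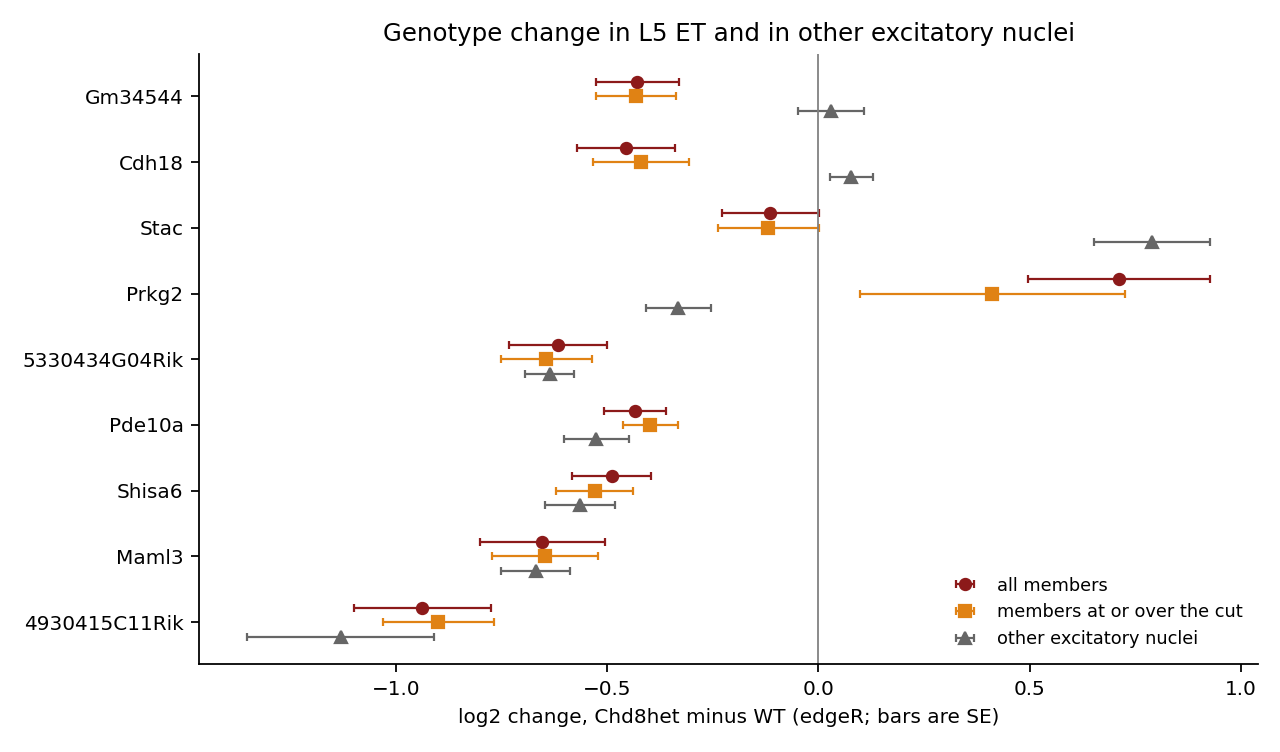
Log2 change from WT to Chd8het for 9 genes in all members, in members at or over the score cut and in other excitatory nuclei, from edgeR fits on sums per library. Bars are SE. Gm34544 and Cdh18 lie left of 0 in the members and near 0 in the other nuclei, and 5330434G04Rik, Pde10a and Shisa6 lie left of 0 in all 3 sets.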

How the data were processed

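The authors deposited filtered matrices of UMI counts per gene and nucleus for 8 libraries of frozen cortex made with 10x Genomics chemistry, with 97772 barcodes and 32285 genes. The submitters' processing notes name STAR 2.7.9a, STARsolo, Cell Ranger and the build mm10, and whether strand was used in counting is not given in the sources used here. Gene identifiers were matched to GENCODE M21 on GRCm38 for 32235 genes.

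Nuclei were gated by the rule on raw counts and summed per library. The L6 CT class needed at least 4 UMIs of Foxp2 and 3 of Hs3st4, and the L5/6 NP class at least 4 of Tshz2 and 2 of Vwc2l, Trhr and Slc17a8 together. Both were excitatory non-members with at most 1 UMI of Erg, Chst8, Slco2a1 and Vat1l together. The L6 CT class was also held to at most 2 UMIs of Tshz2. Inhibitory nuclei had at least 3 UMIs of Gad1 and Gad2 together and none of Slc17a7. The members and lists were chosen with earlier results of these data known. Doublets were marked with Scrublet in scanpy 1.11.5 and kept, except in 1 alternative. Sums were tested with edgeR 4.0.16 (quasi-likelihood, TMM, a minimum count of 10 in filterByExpr, Benjamini-Hochberg adjustment) in R 4.3.3, and with DESeq2 1.42.0 as an alternative. Genotype fits held sex and index type, class fits held the library as a block, and single values per library were compared by exact permutation tests. Each CPM value is a library's sum scaled by TMM, except in the marker lists, the Erg division and the members under the cut, where it is scaled by the plain total.

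The tests were tried on simulated counts: for a log2 change of 1 between genotypes, 86.3% of 95 changed genes were recovered, and of 11796 unchanged genes 15 were called, beside 82 true calls at that size and 94 at a log2 change of 2. The simulated counts held no effect of index type or sex and no library set apart. They also held 95 and 96 changed genes at these sizes, which eases the adjustment of p. The recovery need not hold in the data. Each WT library deviated together with the Chd8het library of its sex and replicate number, with correlations of 0.381, 0.497, 0.337 and 0.170 over genes. Libraries of the same index type and other sex gave 0.041 to 0.293, and WT female 2 correlated more with Chd8het male 2 (0.293) than with its own pair. The labels state that mutants and controls were matched by litter and sex, and litter and index type cannot be told apart in this check. Named genes were, for genotype, all called genes, the 8 smallest unadjusted p in each direction, Chd8, 5330434G04Rik, Maml3, Ephb1 and Shisa6, and for classes the 12 largest differences in each direction that were the same in 8 of 8 libraries. The other genes named, chosen after their values were seen, are from the function lists. The text names only some of the genes these rules select, and a few are not reported here. Each library came from 1 mouse, and UMI counts vary between libraries of a genotype by more than counting error.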

Additional observations from a re-analysis of the deposited data

Results flagged for a closer look

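In 90 groups of 4 libraries, the gap of the highest or lowest library to the next was set against the range of the group by Dixon's 95% critical value, which chance passes in about 1 group in 20. It was passed in 4 groups, about as many as chance gives. The cut was chosen after Chd8het male 2 had been seen to stand apart, so the first 2 of these values restate that. The share of members under the score cut was 2.993% of excitatory nuclei in Chd8het male 2, against 0.2894% to 0.5288% in the other Chd8het libraries. In the same library 57.71% of members were at or over the cut, against 85.19% to 88.74%. The median UMIs per member of Chd8het female 2 were 17450, against 13850 to 13930 in the other Chd8het libraries. In Chd8het male 2, Slc4a4 was at 74.25 CPM in members, against 41.31 to 45.8 CPM.

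The genotype change in L5 ET nuclei differed from that in other excitatory nuclei, by the interaction term of edgeR (adjusted p = 0.0224 for each), for 5 genes. On the log2 scale the difference was -2.72 for Cnksr3, 1.12 for Prkg2, -0.908 for Stac, -0.447 for Gm34544 and -0.525 for Cdh18. Cnksr3 was at 0 to 11.5 CPM in the members, and its highest library was WT male 2.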

How the results depend on the processing

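The number of genes called for genotype over all members was 0, and it was 0 with the pair as replicate block. It was 11 with DESeq2, 136 with no count filter, 5 at or over the score cut, 7 with the replicate block at or over the cut, 3 with nuclei thinned to equal depth, and 0 to 83 when 1 library was left out, the 83 without Chd8het female 2. Calls against L6 CT nuclei numbered 1888 with no count filter and 784 with thinned nuclei. Against L5/6 NP nuclei they were 1440 and 462, and against other excitatory nuclei 956 with thinned nuclei, where fewer genes were tested. The interaction gave 81 with no count filter, 21 at or over the cut and 2 to 200 when 1 library was left out. The sex by genotype term gave 0 calls in edgeR over all members (528 at an unadjusted p under 0.05), 88 with no count filter and 0 to 42 when 1 library was left out. The index term gave 1558, and 493 to 2166 when 1 library was left out.

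The difference in share, 1.25 points with a sign-flip p of 0.125 over the replicate block of 4 pairs (exact), was 0.352 to 1.85 points when 1 library was left out, and its mean was higher in Chd8het under every alternative run, in 3 or 4 of 4 pairs where all 8 libraries were kept. The smallest value was without Chd8het male 2; without WT female 1 it was 0.736 points. With thinned nuclei, where the mean shares were only 0.3355% in WT and 0.3935% in Chd8het, the difference was 0.058 points. The difference in median UMIs was 57.6 with at least 5 marker UMIs in the rule, against -705 UMIs. Single genes changed sign in 5 cases: Ephb1 (0.007) and Ntrk2 (0.000) with thinned nuclei, Ntrk2 when 1 library was left out (-0.12 to 0.074; 0.036 without WT female 2 and 0.074 without Chd8het female 2), and Stac (0.023) with at least 5 marker UMIs. The causes were not tested.

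With 4 mice per genotype an exact test cannot give a p under 0.0286, and members of 1 library share its nuclei preparation. Members are deeper than other classes, and their identity rests on marker UMIs.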

Other observations

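Libraries of the 2 index types differed in L5 ET nuclei at 1558 of 12197 genes (12.8%) by edgeR, 793 higher and 765 lower in dual-indexed libraries, with genotype and sex in the model. Of 81 ribosomal protein genes tested against other excitatory nuclei, 79 had a log2 difference below 0, with a median of -0.35 against -0.034 over all genes. In edgeR 67 of the 81 had an unadjusted p under 0.05, as did 8286 of all 17836 genes tested (46.46%). None of the 81 reached a 2-fold decrease, and 1 of them, the low-level gene Rpl3l, was called higher (1.18 ± 0.40, edgeR adjusted p = 0.0240). Of 80 nuclear oxidative phosphorylation genes, 45 were below 0, with a median of -0.045, and none was called. Between genotypes, 56 of 78 ribosomal protein genes had a log2 change above 0 in the members, with a median of 0.088, and none was called in edgeR, with 4 at an unadjusted p under 0.05. Of 14 immediate early genes, which report recent activity, 8 were above 0 with a median of 0.16; none was called in edgeR, and none had an unadjusted p under 0.05. At or over the cut their median was 0.26, with 2 at an unadjusted p under 0.05 and none called.

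In the L6 CT class, edgeR called Maml3 (log2 change -0.64, adjusted p = 0.00678) and Ephb1 (-0.64, adjusted p = 0.00678) as lower in Chd8het. In L5 ET nuclei Maml3 changed by -0.65 and Ephb1 by -0.17, and edgeR called neither, while DESeq2 called Maml3 (adjusted p = 0.0349).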
